A study of Mus musculus with 3 samples.

Results

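Transcription factor genes that pattern the anterior embryo were followed in Hopx-null embryoid bodies treated with a Wnt inhibitor. They are the zinc finger genes Zic1, Zic2 and Zic5, the homeobox genes Otx1 and Otx2, and the homeobox genes Six3 and Hesx1. The members are all 8 array probes whose RefSeq accession belongs to 1 of these 7 symbols, out of 39429 distinct probes and 21153 named genes on the array. Zic1 has 2 probes and each other gene has 1. Embryoid bodies, which are aggregates of differentiating embryonic stem cells, were compared at day 8 of a cardiac differentiation protocol on 3 two-colour arrays. Each array set RNA from Hopx-/- embryoid bodies given 12.5 µM XAV939 directly against RNA from Hopx+/- embryoid bodies. XAV939 inhibits tankyrase, and this inhibition stabilises axin and lowers β-catenin signalling. The stem cell lines came from blastocysts of each genotype and were maintained on feeder fibroblasts, and how many lines were used per genotype is not stated in the sources used here. Both groups carry a mutant Hopx allele and both were cultured with VEGF, bFGF and FGF10. The groups differ in genotype and inhibitor at once, so effects of the Hopx genotype and of XAV939 cannot be told apart.

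ZIC proteins are zinc finger transcription factors of the neural plate, neural crest and dorsal mesoderm. OTX2 and OTX1 are bicoid-class homeodomain proteins of forebrain and midbrain, and OTX2 is also expressed in the epiblast, where it accompanies the exit from naive pluripotency. SIX3 and HESX1 are factors of the most anterior neural plate. Canonical Wnt signalling is known to posteriorise the neural plate, and low Wnt activity is a condition for anterior identity in the mouse embryo.

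Ratios are given as log2 of null plus inhibitor over heterozygous, as mean ± SD over the 3 arrays (n = 3 throughout). The share of probes well above background, a mark of the scanner software, lay between 61.4% and 68.0% for Cy3 and between 56.6% and 66.6% for Cy5, and the number of arrays limits the precision. Per the labels Cy5 carried the null RNA throughout. Replicate 3 ran the other way: over all probes its Cy5 to Cy3 ratios had a correlation of -0.856 with replicate 1 and -0.894 with replicate 2, while replicates 1 and 2 had one of 0.948. The sign of replicate 3 was therefore turned, as the authors also did in their processed ratios. Hopx, the targeted gene, gave -2.65, -2.75 and -2.73 on the turned arrays and fell 6.54-fold (limma adjusted p = 2.03e-07). The direction therefore rests on Hopx, on the authors' processed ratios and on how replicates 1 and 2 were labelled, and is likely rather than settled. With replicate 3 as labelled no member passed (limma adjusted p = 0.995 for each of the 6 tested, 0 also at an unadjusted p below 0.05). With the opposite direction all signs below would turn, and of the 6 tested members 5 would be lower in place of higher. Heart muscle RNA was present in both groups, with all 12 tested genes of a heart list lower in the null cultures with inhibitor (median log2 ratio -1.58).

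Zic2, Otx2, Hesx1, Zic1 and Zic5 were higher in the null cultures with inhibitor. With the processing used here Zic2 rose most among them, 11.2-fold, and Otx2 rose 6.88-fold. Six3 did not pass the test, and Otx1 was not well above background in either group on any array. Of the 6 tested members 5 were higher and 0 lower at an adjusted p below 0.05 (limma, with 5 higher and 0 lower at an unadjusted p below 0.05 as well). Across all 14705 genes tested, 31.5% were called higher and 33.0% lower by the same rule. The median log2 ratio of the 6 tested members was 1.97, against -0.01 for all genes tested. These figures leave out Otx1, and on 1 array each Zic5, Hesx1 and Six3 entered the test through the null channel alone. They count Zic1 by its brighter probe, while its dimmer probe was lower (-0.74, limma adjusted p = 0.000314 over all probes tested). In bulk RNA such as this, fewer cells of a type and less RNA per cell cannot be told apart.

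**Figure D1:**
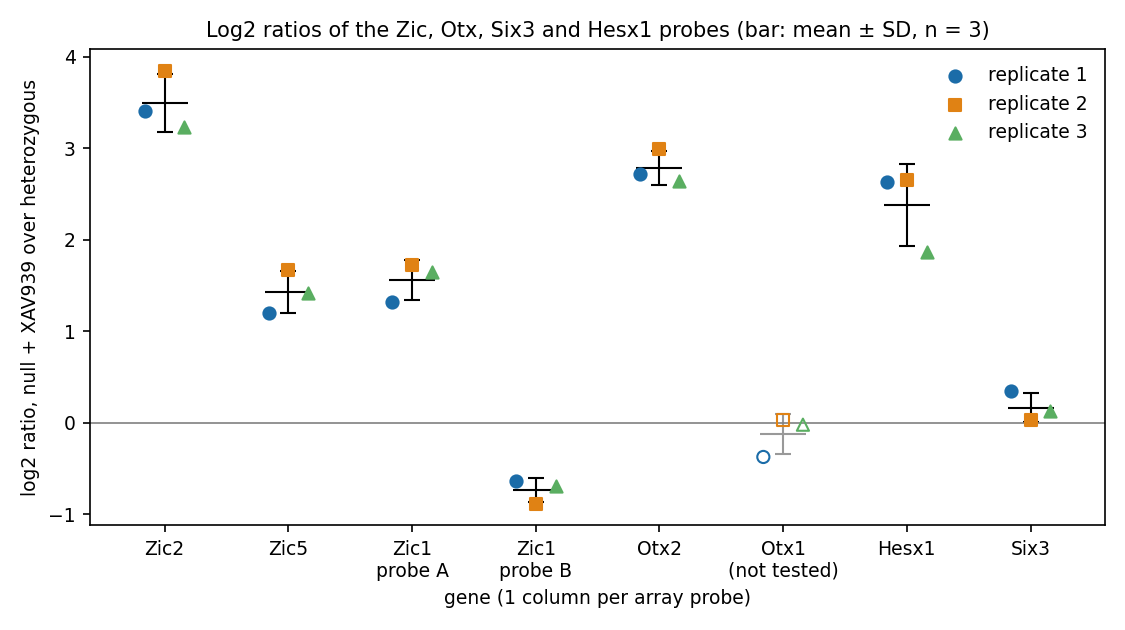
Log2 ratio of null plus XAV939 over heterozygous embryoid bodies for the 8 probes of the 7 genes, with 1 point per replicate array and a bar for the mean ± SD (n = 3); open points mark Otx1, which was not tested. The Zic2, Otx2, Hesx1 and Zic5 points and those of the brighter Zic1 probe (probe A) lie above 1 on every array, the dimmer Zic1 probe (probe B) lies below 0, and Six3 lies near 0.

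The RefSeq promoter table (mouse build GRCm38.p6, windows of 300 bases that lie mostly before each annotated start) holds 8 windows for 5 of the 7 genes, Zic1, Zic5, Otx2, Six3 and Hesx1. The members that rose together have start regions of very different base composition. To show this range, the windows of Zic1 (chr9:91365719-91366018, minus strand) and Hesx1 (chr14:27000112-27000411, plus strand) are given 5′ to 3′ on the strand of the gene with each CG dinucleotide in capitals. The third window is the one of 4 listed for Otx2 (chr14:48665060-48665359, minus strand) that holds a core OTX motif, which is in capitals as GGATTA, the reverse complement of TAATCC.
Zic1: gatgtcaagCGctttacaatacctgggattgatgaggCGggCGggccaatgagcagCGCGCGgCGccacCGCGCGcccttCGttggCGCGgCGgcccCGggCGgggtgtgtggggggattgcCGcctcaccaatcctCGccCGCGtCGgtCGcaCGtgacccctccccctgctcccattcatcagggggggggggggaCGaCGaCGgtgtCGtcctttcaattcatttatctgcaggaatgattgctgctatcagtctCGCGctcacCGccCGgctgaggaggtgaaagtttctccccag
Hesx1: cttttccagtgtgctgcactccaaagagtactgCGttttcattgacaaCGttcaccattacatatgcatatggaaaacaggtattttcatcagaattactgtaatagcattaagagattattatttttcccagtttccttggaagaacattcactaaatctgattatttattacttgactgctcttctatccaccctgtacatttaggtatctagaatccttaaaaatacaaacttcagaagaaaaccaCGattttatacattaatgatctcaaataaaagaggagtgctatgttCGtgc
Otx2: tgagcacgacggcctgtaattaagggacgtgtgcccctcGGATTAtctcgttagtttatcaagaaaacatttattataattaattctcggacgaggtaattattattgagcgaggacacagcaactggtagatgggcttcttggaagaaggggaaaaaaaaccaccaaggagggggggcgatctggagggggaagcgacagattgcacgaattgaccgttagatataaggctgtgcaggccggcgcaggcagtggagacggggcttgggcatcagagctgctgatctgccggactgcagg
The Zic1 window is 65.3% G+C with 31 CG dinucleotides, a G+C content at percentile 82.7 of the 32851 promoter windows of 300 bases in the table. The Hesx1 window is 33.7% G+C with 4 CG dinucleotides, at percentile 2.7. The Zic5 window (62.7%) lay near that of Zic1, and the windows of Otx2 (41.7% to 53.7%) and Six3 (50.0%) lay between.

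On both strands the windows were searched for the TCF/LEF core CTTTGNT, the OTX core TAATCC and the POU octamer ATGCAAAT, none of which contains another. The TCF/LEF core, through which β-catenin acts, was in 0 of the 8 member windows and in 18.6% of all windows. The OTX core was in 1 of 8, the Otx2 window above, at position -211 from the start, and in 7.06% of all windows. The octamer was in 0 of 8 and in 1.74% of all windows. The 8 windows come from 5 genes, without Zic2 and Otx1, and some of the Otx2 windows overlap. They are too few to show a departure from the shares of all windows. A match is a string of letters in this window and does not show a binding site.

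Zic2 encodes a zinc finger factor needed for forebrain midline and neural tube closure, and it is also expressed in pluripotent cells. Its median signal in the null cultures with inhibitor was 2250, 2969 and 1313 on replicates 1, 2 and 3, against 102, 108 and 195 in the heterozygous cultures. The groups did not overlap, and the lowest null signal was far above the highest heterozygous one. Its log2 ratios were 3.40, 3.84 and 3.23, a mean of 3.49 ± 0.32 (limma adjusted p = 2.30e-07). This put Zic2 at rank 13 of 14705 genes from the highest ratio down. Zic2 stayed higher under all 12 alternatives with replicate 3 turned, but its size depended on the treatment of the dim heterozygous signals. It was 5.55-fold when local backgrounds marked as outliers were left in, and 19.8-fold with the scanner software's own processed signals.

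Zic5, the neighbour of Zic2 on chromosome 14 with 1 annotated non-coding gene between them, rose as well. Zic5 acts in neural crest and neural tube development. Its null signals were 267, 304 and 146 against 47, 47 and 72, of which the heterozygous ones passed as well above background on 2 of 3 arrays. The groups did not overlap here either. The local background beside the heterozygous signals was 25, 27 and 42. The log2 ratios were 1.20, 1.67 and 1.42, a mean of 1.43 ± 0.23 and a 2.69-fold rise (limma adjusted p = 1.05e-05). With the scanner software's own processed signals, which carry no added offset, the mean fold was 11.1, so the size of the Zic5 rise depends on the treatment of low signals. When local backgrounds marked as outliers were left in, Zic5 did not pass (log2 ratio 0.70, limma adjusted p = 0.106; the alternatives with replicate 3 turned span 6.21e-07 to 0.106).

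Zic1, a ZIC factor of dorsal neural tube, cerebellum and somites, had 2 probes that moved in opposite directions on all 3 arrays. Both carry the same RefSeq transcript accession, and their places within the transcript are not stated in the sources used here. The brighter probe had null signals of 491, 732 and 429.5 against 103.5, 132 and 192 in the heterozygous cultures. Its log2 ratios of 1.31, 1.73 and 1.64 gave a mean of 1.56 ± 0.22, a 2.95-fold rise (limma adjusted p = 5.70e-06). The dimmer probe had null signals of 142, 89 and 54 against 112, 135.5 and 164.5. Its ratios were -0.64, -0.88 and -0.69, a mean of -0.74 ± 0.13 and a 1.67-fold fall (limma adjusted p = 0.000314 over the 24376 probes tested, of which 28.7% were higher and 31.4% lower). Both probes were well above background in both groups on every array. The raw signals of the dimmer probe overlapped between the groups across arrays, and its ratio within each array, after normalization, was below 0 on all 3. Such a split was found for 199 (5.24%) of the 3799 genes that had more than 1 tested probe.

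The direction for Zic1 thus rests on the choice of probe. The mean over its 2 probes was 0.41 on the log2 scale (1.33-fold, limma adjusted p = 0.00363). With marked backgrounds left in, the brighter probe missed the threshold (0.97, limma adjusted p = 0.0503; the alternatives with replicate 3 turned span 1.91e-07 to 0.0503). In the RefSeq annotation the span of Zic1 on chromosome 9 overlaps that of its neighbour Zic4. One Zic4 probe exceeded background clearly enough on 2 of 3 heterozygous channels and on 0 of 3 null channels, with signals of 113.5, 67 and 39 in null against 45.5, 47 and 83 in heterozygous cultures, so it was not tested. The other Zic4 probe was not well above background in either group on any array.

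**Figure D2:**
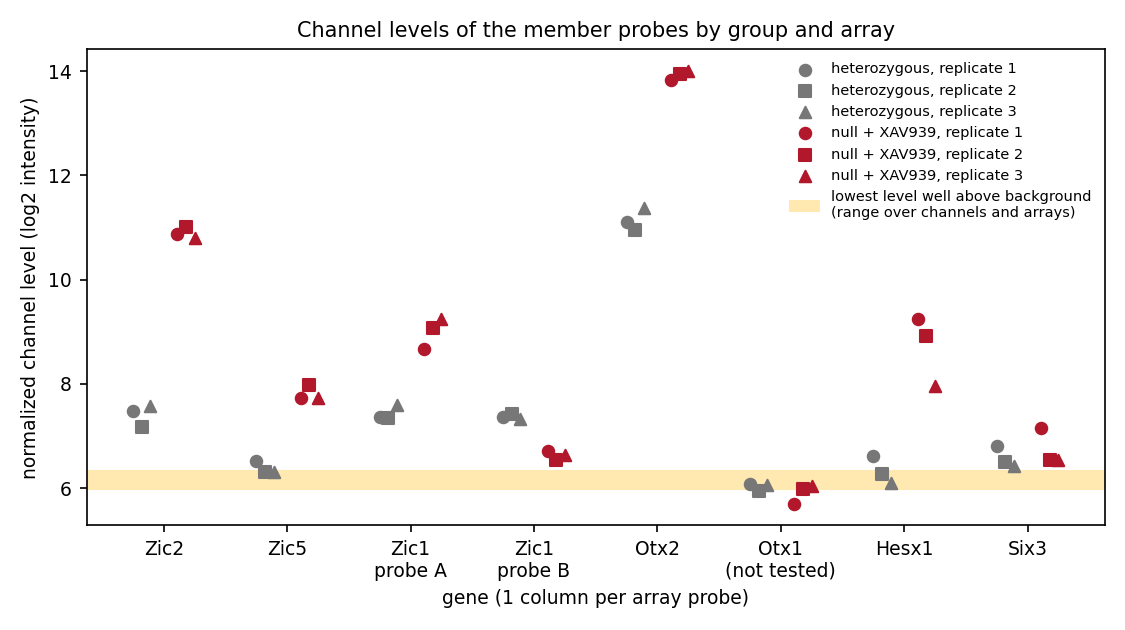
Channel level of each member probe (log2 intensity after normalization within and between arrays) in heterozygous and null plus XAV939 cultures, with 1 point per array; the band spans the lowest level that was well above background in each channel and array. Otx2 and Zic2 stand clear of the band in both groups, the heterozygous levels of Zic5 and Hesx1 lie at or near it, and Otx1 lies in or below it.

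Otx2 encodes the homeodomain factor of anterior neuroectoderm and of the epiblast, and in the mouse embryo its loss removes forebrain and midbrain. Its signals were 18208, 24975 and 12839 in the null cultures with inhibitor and 1510, 1687 and 2808 in the heterozygous cultures. The groups were far apart, and both were well above background on all 3 arrays with no saturated spot. The ratios of 2.72, 2.99 and 2.64 gave a mean of 2.78 ± 0.19, a 6.88-fold rise (limma adjusted p = 2.80e-07). Over the alternatives with replicate 3 turned, Otx2 ranged from 6.35-fold with the authors' processed values to 8.40-fold with median centring. Its paralog Otx1, a gene of forebrain and sense organs, had signals of 86.5, 52 and 34 in the null and 41, 31.5 and 52 in the heterozygous cultures. These were not well above background on any of the 3 arrays in either group, so Otx1 was not tested and its plotted ratios have no order.

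Hesx1 encodes a paired-like homeodomain repressor of the anterior neural plate and pituitary. Its signals were 712.5, 624 and 174 in the null cultures with inhibitor, against 49.5, 49 and 66 in the heterozygous cultures. The groups did not overlap, with replicate 3 lowest in the null cultures, and the heterozygous signal cleared the background on 2 of 3 arrays. The log2 ratios were 2.63, 2.65 and 1.86, a mean of 2.38 ± 0.45 and a 5.20-fold rise (limma adjusted p = 3.26e-06). With the scanner software's processed signals the fold was 23.9, and with marked backgrounds left in it was 2.30, so its direction and call held under the 11 alternatives with replicate 3 turned but its size did not.

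Six3 encodes a homeodomain factor of the eye field and rostral forebrain that represses Wnt genes in the mouse. Its signals were 183, 87 and 54 in the null and 64.5, 54.5 and 75.5 in the heterozygous cultures. The signals overlapped between the groups, and the heterozygous ones were well above background on 2 of 3 arrays. The ratios were 0.34, 0.03 and 0.12, a mean of 0.17 ± 0.16 that did not pass (limma adjusted p = 0.203). With the scanner software's processed signals Six3 passed as higher, at 0.62 (limma adjusted p = 0.0129; the alternatives with replicate 3 turned span 0.0129 to 0.711).

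In descending order of the ratio the tested members were Zic2, Otx2, Hesx1, Zic1 by its brighter probe, Zic5 and Six3. The replicate ranges of Zic2 and Otx2 did not overlap, with a difference of 0.71 on the log2 scale, nor did those of Hesx1 and Zic1 (0.82) or of Zic5 and Six3 (1.26). The ranges of Otx2 and Hesx1 overlapped, as did those of Zic1 and Zic5, which differed by 0.13. This order is of differences between the groups, not of RNA levels. With the scanner software's processed signals Hesx1 (4.58) and Zic2 (4.31) stood above Zic5 (3.48) and Otx2 (2.87), so the order below Zic2 depends on the processing, as does the place of Zic2.

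**Figure D3:**
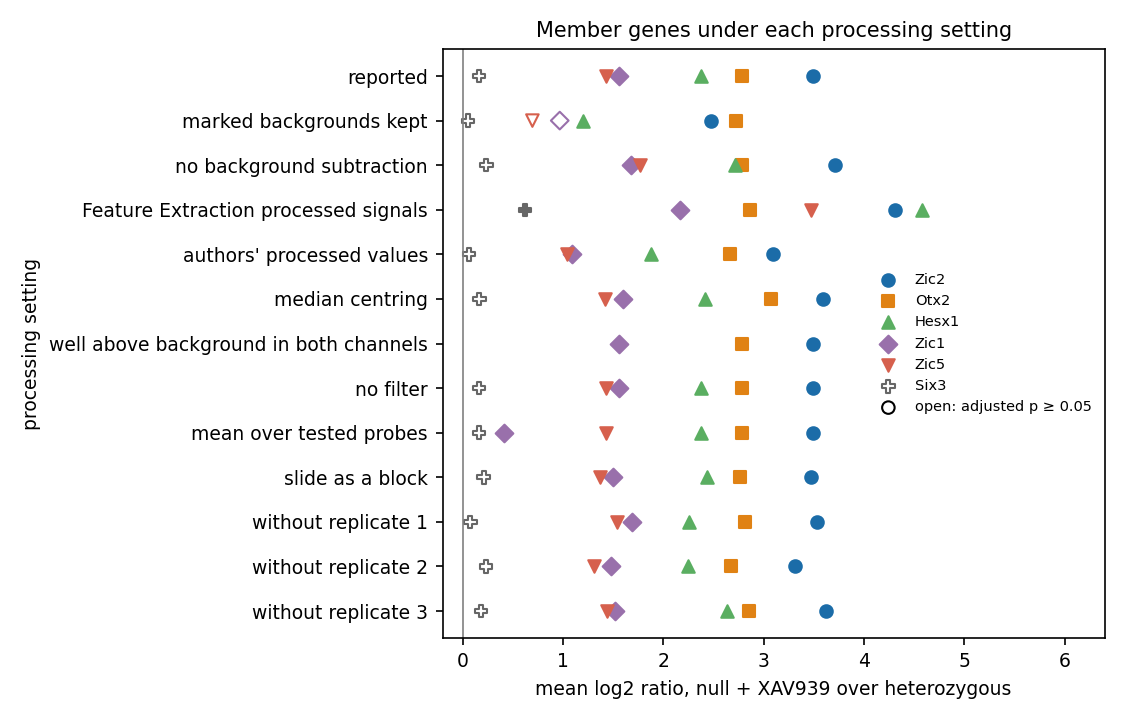
Mean log2 ratio of the 6 tested members as reported and under each alternative processing with replicate 3 turned, with filled markers for an adjusted p below 0.05 (limma). Otx2 stays between 2.67 and 3.07, Hesx1 ranges from 1.20 to 4.58 and Zic5 from 0.70 to 3.48, and the genes missing from a line were not tested there.

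The genes whose 3 ratios lay closest to those of Zic2 and Otx2, by Euclidean distance on the log2 scale over the 3 arrays, were picked from all genes tested. For Zic2 they were Myb (distance 0.21), Prim2 (0.21) and St8sia3 (0.31), with mean ratios of 3.59, 3.53 and 3.34. For Otx2 they were Tub (0.07), Vstm2l (0.08) and Gng3 (0.10), with mean ratios of 2.80, 2.83 and 2.78. With 3 arrays of a single comparison this likeness is mostly a likeness in the size of the difference.

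Among 9 relatives of the same families 6 were tested, of which 3 were higher and 2 lower. Six2, the neighbour of Six3 on chromosome 17 and a factor of kidney progenitors, rose 3.20-fold by its brighter probe (1.68 ± 0.31) and 1.33-fold by the other (0.41 ± 0.09). Gsc, a bicoid-class gene of the organiser, rose 1.49-fold (0.58 ± 0.12) but missed the threshold with marked backgrounds left in (limma adjusted p = 0.221), with the authors' processed values (0.0642) and with median centring (0.0561). Six5 (-0.71 ± 0.18) fell, and it did not pass with median centring (limma adjusted p = 0.0628). Six4 lay at 0.00 ± 0.31 with signs that differed between arrays, while Six6 and Crx were not tested.

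Other genes of the anterior neural plate were for the most part dim. Of 17 such genes 7 were tested, 4 higher and 1 lower, with a median log2 ratio of 0.37. Of the 10 that were not tested, which include Rax, Pax6, Emx2, Fezf1 and Nkx2-1, 6 had no probe well above background on any array in the null cultures. Sp8, a zinc finger gene of the anterior neural ridge, rose 2.78-fold by its brightest probe (1.48 ± 0.11, limma adjusted p = 4.10e-06). The mean over its tested probes was 0.80 (1.74-fold, limma adjusted p = 7.64e-05), so the size of its rise depends on the choice of probe. The LIM homeobox genes Lhx5 (0.70 ± 0.56) and Lhx2 (0.48 ± 0.51) passed as well, with replicate 1 highest for both. Without replicate 1 neither passed (limma adjusted p = 0.0575 for Lhx5 and 0.333 for Lhx2), and 1 of the 7 was then higher. With marked backgrounds left in none of the 4 passed (0 higher, limma). With median centring 1 was higher, and neither Lhx5 (limma adjusted p = 0.0763) nor Lhx2 (0.188) passed. With the authors' processed values 2 were higher, and Lhx2 missed the threshold (limma adjusted p = 0.0555). Lhx2 also did not pass with the scanner software's processed signals (limma adjusted p = 0.123) or without the background filter (0.0577). Dmbx1, an OTX-related homeobox gene of midbrain, fell by 0.56 on the log2 scale (± 0.02), with a null signal that cleared the background on 1 of 3 arrays. It did not pass with marked backgrounds left in (limma adjusted p = 0.208) or with median centring (0.0517), and 0 genes of the list were then lower.

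Genes of more posterior levels moved in both directions. Of 9 tested midbrain and hindbrain genes 2 were higher and 3 lower, with a median of -0.14. The hindbrain gene Hoxb2 (-0.84 ± 0.14) and the midbrain-hindbrain signal Fgf8 (-0.64 ± 0.32) were among those that fell. Fgf8 did not pass with median centring (limma adjusted p = 0.0650). Gbx2, which opposes OTX2 at the midbrain-hindbrain border and is also expressed in stem cells, rose by 0.71 ± 0.21, and Egr2 of the hindbrain rose by 0.38 ± 0.02. Neither Gbx2 nor Egr2 passed with marked backgrounds left in or with the authors' processed values, and Egr2 missed the threshold without replicate 1 (limma adjusted p = 0.0600) and without replicate 2 (0.0728). Without replicate 3 the lower count of this list was 5. Of 15 tested genes of a posterior list (Hox and Cdx genes and Tbx6) 6 were higher and 5 lower, with a median of 0.04. Hoxb9 (2.09 ± 0.25), Hoxb8 (1.36 ± 0.76) and Hoxa3 (0.59 ± 0.05) rose most, whereas the caudal gene Cdx2 (-1.66 ± 0.19), Tbx6 (-0.97 ± 0.03) and Hoxb4 (-0.80 ± 0.15) fell. Hoxb8 was highest on replicate 3 (2.23, against 0.86 and 0.99 on replicates 1 and 2). With marked backgrounds left in 1 gene of this list was higher and 1 lower, and without replicate 2 the lower count was 3. The higher count was 3 with the authors' processed values and 2 with median centring. Hoxa3 passed in neither (limma adjusted p = 0.0594 and 0.0565). With median centring the lower count was 3.

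**Figure D4:**
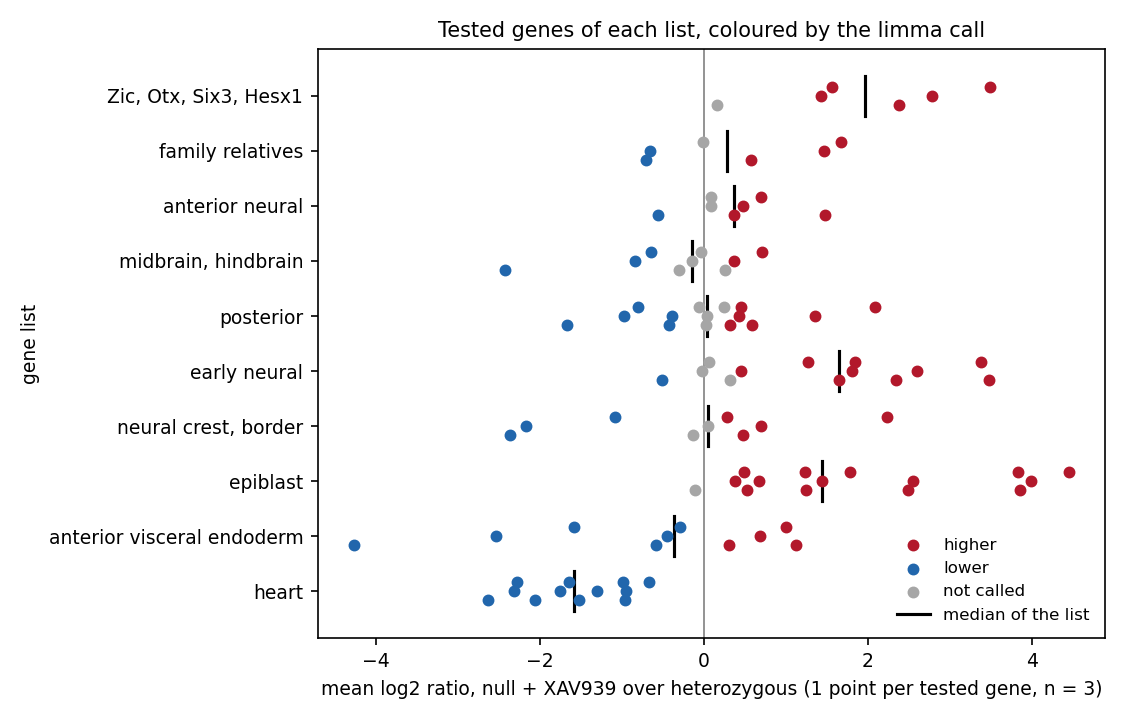
Mean log2 ratio of every tested gene in the member set and in 9 other gene lists, coloured by the limma call (adjusted p below 0.05), with a line at each list's median. The epiblast and early neural points lie mostly to the right of 0, the posterior and midbrain-hindbrain points on both sides, and all heart points to the left.

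Otx2, Zic2 and Hesx1 are also expressed outside the neural plate, so markers of the other tissues were read beside them. The summed normalized intensity of the 6 tested members ranged over the arrays from 17808 to 19396 in the null cultures with inhibitor. In the heterozygous cultures it ranged from 2531 to 3265. Otx2 made up most of this sum in both groups on every array. The sum therefore follows Otx2 and says little about the other tested members. Of 15 genes of the epiblast after implantation, all tested, 14 rose and 0 fell (limma, 0 also at an unadjusted p below 0.05), with a median of 1.44. Pou3f1 (4.46 ± 0.28), Fgf5 (3.99 ± 0.40) and Slc7a3 (3.86 ± 0.42) led them. The summed normalized intensity of these 15 genes ranged over the arrays from 139412 to 162607 in the null cultures with inhibitor and from 35208 to 41898 in the heterozygous ones. Of 17 early neural genes 13 were tested, of which 9 rose and 1 fell, with a median of 1.65 and a summed intensity of 24732 to 26983 against 8822 to 10056. The neuronal tubulin Tubb3 (3.48 ± 0.25), Sox3 (3.38 ± 0.11) and the intermediate filament gene Nes (2.60 ± 0.33) rose most. Sox1, which marks neural plate cells and not epiblast, lay at 0.32 and did not pass, and Dcx (0.07), of young neurons, did not pass either. With marked backgrounds left in, the early neural count was 5 higher. The part of either cell type in the rise of the members was not tested.

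Neural crest and border genes, a tissue of ZIC expression, were divided, with 4 of 9 tested genes higher and 3 lower. Foxd3, a gene of both crest and epiblast, rose 4.70-fold (2.23 ± 0.39) with a heterozygous signal that cleared the background on 1 of 3 arrays. Sox9 (0.70 ± 0.28) and Pax3 (0.48 ± 0.17) rose, while Msx2 (-2.36 ± 0.31), Snai2 (-2.17 ± 0.18) and Msx1 (-1.08 ± 0.29) fell, and the crest gene Sox10 lay at 0.05 without passing. The higher count of this list was 1 with marked backgrounds left in, when Foxd3 (limma adjusted p = 0.125) and Pax3 (0.239) did not pass. It was 2 with the authors' processed values and 2 with median centring, where Pax3 did not pass either (limma adjusted p = 0.674 and 0.108). The summed intensity of the tested list was 3581 to 4145 in the null cultures with inhibitor and 8270 to 9790 in the heterozygous ones. The part of this tissue in the values of Zic2 and Zic5 was not tested.

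For the anterior visceral endoderm, an extraembryonic tissue that expresses Otx2 and Hesx1 in the mouse embryo, a list of 10 genes was read. Not all of them are restricted to this tissue, so the list does not measure its amount. All 10 were tested, with 4 higher and 6 lower and a median of -0.36. Foxa2 fell 19.3-fold (-4.27 ± 0.14), and Sox17 (-2.53 ± 0.10) and Amot (-1.58 ± 0.52) fell with it. The secreted antagonist Cer1 (1.13 ± 0.24), Eomes (1.01 ± 0.58) and the receptor gene Fzd5 (0.68 ± 0.05) rose, and none of these 3 passed with marked backgrounds left in, when the counts were 0 higher and 3 lower. Lhx1 (0.30) rose too, and Hhex (-0.29), Sfrp5 (-0.44) and Dkk1 (-0.58) fell by less than Foxa2, Sox17 and Amot. The summed intensity was 10194 to 15738 in the null cultures with inhibitor against 44790 to 47092 in the heterozygous ones. The part of this tissue in the values of Otx2 and Hesx1 was not tested.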

How the data were processed

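RNA from null plus inhibitor and heterozygous embryoid bodies was hybridised together on 3 Agilent arrays, with replicate 1 on one slide and replicates 2 and 3 on another. The deposited spot and local background values are median pixel intensity in each channel, extracted by the authors with Agilent Feature Extraction (11.5.1.1 per the file headers, 8.5.1.1 per the submitters' processing notes). A further deposited intensity column holds signals from which Feature Extraction has subtracted background and balanced the dyes. The authors' table was read as log2 ratios, since its slopes on the scanner's log2 ratios were 0.688, 0.799 and -0.797; its normalization and centring are not stated (medians of 0.086, -0.08 and 0.053), and its direction on replicate 3 is that of Cy3 over Cy5. The 0 or 1 marks for outlier, saturated and well-above-background spots are those in the deposited files.

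Local backgrounds marked as outliers took the median of the unmarked backgrounds in that channel. Median signals were corrected by normexp (offset 50), which narrows ratios of dim probes, and normalized by loess within arrays in limma 3.58.1 (R 4.3.3), with control and outlier spots left out. Probes were named through RefSeq accessions (28025 of 39429 named). A probe entered the test if 1 or both channels were well above background on all 3 arrays, and the brightest such probe stood for its gene. The mean ratio was tested against 0 with limma's moderated test and Benjamini-Hochberg adjustment over 14705 genes, at a threshold of 0.05. Each array is its own pair, and with 2 arrays in one dye orientation and 1 in the other a dye effect does not cancel. P-values measure the spread between these arrays, which limma moderates for each gene towards a spread pooled over all genes tested. The pooled part carried 6.66 of the 8.66 degrees of freedom. The test was run on simulated data with known changes.

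The members, gene lists, motifs and the turn of replicate 3 were chosen with earlier results of these data known. Named genes are all members and their relatives, Hopx, the 3 largest called rises and falls of each list, and the 3 genes nearest in pattern to Zic2 and Otx2; Sox1, Dcx, Sox10 and the untested anterior neural genes were named after their values were seen. Some genes that this rule names are not reported here. Alternatives changed the background, normalization, filter, probe rule, slide, orientation of replicate 3 and the replicates used.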

Additional observations from a re-analysis of the deposited data

How the results depend on the processing

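Leaving out each replicate gave 3505 to 5278 genes higher and 3714 to 5342 lower, with 5 members higher and 0 lower each time; the fit without replicate 1 uses the arrays of a single slide. With marked local backgrounds kept 2664 genes were higher and 2252 lower, and 3 members (Zic2, Otx2 and Hesx1) were higher. With median centring 3035 were higher and 2019 lower (60.1% higher against 48.9%), with 5 members higher. With both channels required above background 3 members were tested and 3 were higher, Zic1, Zic2 and Otx2, since fewer genes entered the test. With replicate 3 as labelled limma called 0 genes higher, 0 lower and 0 members (13 and 27 genes at an unadjusted p below 0.05, 0 of them members), Hoxb8 turned to -0.13 and Eomes to -0.027. Over the other alternatives the 56 named genes that were tested gave 664 values, of which 621 kept direction and side of the threshold, 42 kept direction but no longer passed, 1 (Six3) newly passed and 0 turned. Of the 42, 19 came from marked backgrounds kept and 11 from median centring; the cause was not tested. With the slide as a block all members kept their call. Signals close to background limit the size of the ratios of Hesx1, Zic5, Six3 and Zic1. The dim heterozygous signals of Zic2 limit the size of its ratio too. The reported test is a paired one, since the ratio within each array is the pair.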
